A study of Mus musculus with 8 samples.

Results

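1500004A13Rik is a gene on mouse chromosome 3 whose transcripts are annotated as long noncoding RNAs (lncRNAs). It was read here by 5 probes, ASMM10P024949, ASMM10P024950, ASMM10P024951, ASMM10P024952 and ASMM10P056915, out of 60804 probes in the authors' table of normalized values. Probe names were available only from the study's lists of differentially expressed RNAs, so further probes of this gene could not be seen. The members are the probes annotated to this gene in those lists. They were therefore chosen by their difference between the strains on these same arrays, and that difference is given below as a description without a test. The samples were brainstems of 4 C57BL/6 and 4 DBA/1 mice, all male and 5 weeks old, with 1 mouse per array. C57BL/6 served as the control, because DBA/1 mice are prone to sound-induced seizures followed by respiratory arrest, and no mouse of either strain had been given the sound test. The study's methods name the substrains as DBA/1JNCrlj and C57BL/6JNifdc. Each strain is inbred, so the contrast covers every locus at which the strains differ. The reference sequence used for the annotation is that of C57BL/6J, and no DBA/1 sequence was used here. Whether the DBA/1 genome differs under a probe was not examined, so every value is a hybridization signal, and a lower signal is not by itself a lower amount of RNA.

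A lncRNA is transcribed, and often spliced and polyadenylated, like an mRNA but is not translated. A single lncRNA gene commonly gives several transcripts that begin at one promoter and end at different sites, and many are present in only some tissues. A microarray probe reports only the transcripts that contain its sequence, so probes placed in different parts of a gene can give different readings.

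Each probe was present as 1 spot per array. The intensity of a spot is the value that the scanner software computed after background subtraction. On spots of the probes below that were not significantly above background, this value had the size of the software's own error estimate. The log2 signal is the intensity after a floor of 5 was set and the 8 arrays were quantile-normalized. The floor corresponds to 2.32 on the log2 scale. The software flags a spot as well above background when it exceeds the background by a margin of its own. All 8 arrays carried the same scan date and different slide positions. C57BL/6 lay in one row and DBA/1 in the other, so slide row and strain cannot be told apart. The C57BL/6 arrays had 33123 to 36250 probes well above background and the DBA/1 arrays 29378 to 33439. These ranges overlap, since DBA/1 replicate 4 had more than C57BL/6 replicates 1 and 2. The 75th percentile of intensity was 73.7 to 112 in C57BL/6 and 50.3 to 76.4 in DBA/1. In every slide column the DBA/1 array was the lower of the pair on both measures. The part of overall array brightness in the results below was not tested. Of 23 marker genes considered for checking the tissue, Tph2 and Slc6a4 had a named probe. Names came from the study's lists of differentially expressed RNAs, so a marker could be read only if it differed between the strains. Tph2, which makes serotonin in the raphe neurons of the brainstem, was well above background in all 8 mice, but its log2 signal was 9.76 ± 0.65 (SD, n = 4) in C57BL/6 and 11.39 ± 0.21 (SD, n = 4) in DBA/1. The Slc6a4 probe belongs to a noncoding transcript of the serotonin transporter gene and was well above background in 1 C57BL/6 and 4 DBA/1 mice. Both markers were higher in DBA/1, opposite to 1500004A13Rik, but a difference was a condition for reading them. The part of tissue makeup in the results below was not tested. In bulk tissue, fewer cells of a type and less RNA per cell cannot be told apart.

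The 5 probes are shown because they set which part of the gene was read in each strain. They are given 5′ to 3′ as listed by the study, in lower case, with the polyadenylation hexamers AATAAA and ATTAAA in capitals.
uc008pwp.2 (ASMM10P024949): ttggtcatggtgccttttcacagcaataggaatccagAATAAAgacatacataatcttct
uc008pwq.2 (ASMM10P024950): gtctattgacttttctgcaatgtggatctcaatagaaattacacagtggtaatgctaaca
uc008pwr.2 (ASMM10P024951): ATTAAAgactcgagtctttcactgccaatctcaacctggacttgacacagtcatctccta
uc008pws.2 (ASMM10P056915): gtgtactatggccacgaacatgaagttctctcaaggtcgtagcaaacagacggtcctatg
NR_015498 (ASMM10P024952): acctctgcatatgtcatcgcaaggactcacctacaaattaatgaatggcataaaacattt
Each probe is 60 bases long, and no pair of them shared a stretch longer than 7 bases on either strand, so each spot reads a sequence of its own. The probes were not aligned, so which of the 5 listed transcripts hold each probe was not examined. A transcript name given with a value below stands for its probe. The G and C content was 36.7% for uc008pwp.2, 35.0% for uc008pwq.2, 43.3% for uc008pwr.2, 48.3% for uc008pws.2 and 36.7% for NR_015498. The median over the 761 listed lncRNA probes was 40%, and 90% of them lay within 35.0% to 51.7%. All 5 probes fell inside that range. A hexamer in capitals occurs in 2 of the 5 probes and in 20.9% of the listed lncRNA probes. These letters were searched on the printed strand alone, and a match is not evidence of a polyadenylation site.

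All 5 annotated transcripts lie on the minus strand and share their start at position 88832487 of chromosome 3 in GRCm38. They differ in where they end. NR_015498 is the shortest in span, at chr3:88822010-88832487, with 3629 nt of RNA. The transcripts uc008pwr.2 and uc008pws.2 both cover chr3:88805289-88832487 and differ in their exons, with 3729 and 3364 nt of RNA. The transcript uc008pwq.2 covers chr3:88800684-88832487 with 889 nt of RNA, and uc008pwp.2 covers chr3:88782943-88832487 with 2075 nt. RefSeq now places the gene, matched by its gene ID 319830, at chr3:88805289-88832547 with 4 transcripts. The ends of uc008pwq.2 and uc008pwp.2 lie beyond the 3′ end of that RefSeq gene.

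The annotated probe intervals follow the same order. The interval of NR_015498 began 7.36 kb from the shared start, those of uc008pws.2 and uc008pwr.2 began at 21.3 and 21.5 kb and overlap, that of uc008pwq.2 began at 31.3 kb, and that of uc008pwp.2 at 48.0 kb. Toward the other end of the transcripts, the intervals of NR_015498, uc008pwq.2 and uc008pwp.2 reached to 14, 60 and 332 bases from the annotated 3′ end. Those of uc008pws.2 and uc008pwr.2 stopped 2935 and 5564 bases short of it. The intervals are 150 to 3108 bases long, which exceeds the probe length. This was also the case for 225 of 273 listed lncRNAs whose RNA length equals their genomic span, so the length of an interval does not show that a probe crosses a splice junction. All 5 intervals lie inside the span of 5830417I10Rik, a transcribed pseudogene that the study's list places on the opposite strand.

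All 5 probes were lower in DBA/1 than in C57BL/6 mice, and for each of them every DBA/1 value lay below every C57BL/6 value. Over all 33179 tested probes, 7.64% showed this separation in the same direction. In the limma fit, all 5 reached a 2-fold change at an unadjusted p under 0.05, a criterion that 3.31% of the tested probes met in this direction and 4.37% in either. All 5 also met it with the Benjamini-Hochberg adjusted p under 0.05, as did 2.94% of the tested probes in the direction of lower signal in DBA/1. The probes were chosen on this contrast, so these counts are a description. The median log2 difference of the 5 probes was -4.72, against -0.01 over all tested probes.

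The probe listed for NR_015498, a RefSeq transcript, was ASMM10P024952. Its spot intensities in C57BL/6 replicates 1 to 4 were 377, 416, 438 and 551, and those in DBA/1 replicates 1 to 4 were 2.65, 1.80, 1.99 and 4.47. The DBA/1 spots were hardly brighter than the glass around them, with a median spot signal 1.11 to 1.46 times the local background, against 24.5 to 46.1 times in C57BL/6. After normalization, the log2 signals in C57BL/6 were 8.48, 8.78, 8.57 and 8.40, and all 4 DBA/1 values were at the floor. The C57BL/6 mean was 8.56 ± 0.16 (SD, n = 4), and the measured difference was -6.24. Because the DBA/1 side is set by the floor, only a bound can be given. The signal of this probe was at least 25.4-fold higher in C57BL/6.

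For that bound, each DBA/1 array was given a limit, namely its top log2 signal among undetected probes (those without the flag for well above background), and a probe that lay under the limit was raised to it before the mean was taken. This limit lay between 3.62 and 4.42 on the DBA/1 arrays. The same rule was used for the probes below.

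The probe of uc008pwq.2, a transcript that ends beyond the RefSeq gene, gave a closely similar picture. Its intensities in C57BL/6 were 393, 456, 460 and 507, and those in DBA/1 were 5.66, 1.73, 1.56 and 3.58. The log2 signals in C57BL/6 were 8.55, 8.92, 8.63 and 8.28, while DBA/1 replicate 1 was at 2.36 and the other 3 DBA/1 mice were at the floor. The C57BL/6 mean was 8.60 ± 0.26 (SD, n = 4), the measured difference was -6.27, and the signal was at least 26.0-fold higher in C57BL/6. The bounds of uc008pwq.2 and NR_015498 differ by less than the spread between C57BL/6 mice.

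The probe of uc008pws.2 also had no signal well above background in DBA/1. Its intensities in C57BL/6 were 143, 140, 143 and 192, and those in DBA/1 were 2.56, 1.77, 1.86 and 2.02. The log2 signals in C57BL/6 were 7.08, 7.19, 6.94 and 6.96, and all 4 DBA/1 mice were at the floor. The C57BL/6 mean was 7.04 ± 0.12 (SD, n = 4), the measured difference was -4.72, and the signal was at least 8.85-fold higher in C57BL/6. This bound ends at the same limit as that of NR_015498, so it does not show that uc008pws.2 differed less.

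The probe of uc008pwr.2, whose interval overlaps that of uc008pws.2, was dim in both strains. Its intensities in C57BL/6 were 25.0, 25.8, 31.9 and 39.0, and those in DBA/1 were 12.5, 5.76, 6.46 and 6.18. The log2 signals were 4.58, 4.77, 4.76 and 4.68 in C57BL/6 and 3.43, 2.82, 3.36 and 2.71 in DBA/1. The strains did not overlap, although none of the DBA/1 spots was well above background. The means were 4.70 ± 0.09 (SD, n = 4) in C57BL/6 and 3.08 ± 0.37 (SD, n = 4) in DBA/1, with a measured difference of -1.62. The signal of this probe was at least 1.74-fold higher in C57BL/6.

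The probe of uc008pwp.2, the farthest from the shared start, was the exception among the 5, since it was well above background in all 4 mice of both strains. Its intensities were 55.7, 60.7, 82.1 and 102 in C57BL/6 and 15.5, 14.5, 18.2 and 19.5 in DBA/1. The log2 signals were 5.73, 6.00, 6.13 and 6.05 in C57BL/6 and 3.84, 4.07, 4.81 and 4.26 in DBA/1. The means were 5.98 ± 0.17 (SD, n = 4) in C57BL/6 and 4.24 ± 0.41 (SD, n = 4) in DBA/1. The difference of -1.73 (standard error 0.22) is thus the only one of the 5 with both strains well above background. It corresponds to a 3.33-fold higher signal in C57BL/6. The value of DBA/1 replicate 1, at 3.84, lay just below the highest value among undetected probes on that array, at 3.91. Replicates 2, 3 and 4, at 4.07, 4.81 and 4.26, lay not far above theirs, at 3.62, 4.42 and 3.63. The DBA/1 signal of this probe was therefore close to the limit of detection.

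In terms of detection, all 5 probes were well above background on all 4 C57BL/6 arrays, and 4 of the 5 were so on no DBA/1 array. Among all tested probes, 1.27% were well above background on all C57BL/6 arrays and on no DBA/1 array, and 0.127% showed the reverse. The filter for testing asked for the flag on 4 or more arrays. A tested probe without the flag in DBA/1 therefore had to carry it on all 4 C57BL/6 arrays. For 4 of the 5 probes, the C57BL/6 side of this split was thus fixed by the filter. The 5 probes were also chosen on this contrast, so the split is a description. A less strict flag, for spots that are positive and significantly above background, was set on 12 of the 20 DBA/1 spots. It was set in 4 DBA/1 mice for uc008pwp.2, in 4 for uc008pwr.2, in 2 for uc008pwq.2 and in 1 each for NR_015498 and uc008pws.2. On the DBA/1 spots of the 5 probes without this flag, the intensity was 0.997 times its error estimate. Those intensities are therefore not a measured signal. A complete lack of the transcripts in DBA/1 is therefore not shown by these arrays. No spot of the 5 probes was saturated or flagged as an outlier.

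The median signal of the DBA/1 spots was 1.15 to 2.00 times the local background for uc008pwq.2, 1.08 to 1.66 times for uc008pws.2, 1.54 to 3.00 times for uc008pwr.2 and 1.74 to 2.71 times for uc008pwp.2. In C57BL/6 the same ratios were 32.7 to 46.8, 9.82 to 13.6, 2.66 to 3.86 and 4.40 to 7. The ratios of the strains overlap for uc008pwr.2 alone, where the DBA/1 replicate 1 spot, at 3.00, exceeded those of C57BL/6 replicates 1 and 2, at 2.66 and 2.87. On all 5 probes the brightest DBA/1 spot, by its median signal before background subtraction, was that of DBA/1 replicate 1.

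Side by side, the measured strain differences of NR_015498 and uc008pwq.2, at -6.24 and -6.27, differ by 0.03, and those of uc008pwp.2 and uc008pwr.2, at -1.73 and -1.62, differ by 0.12, while that of uc008pws.2 was -4.72. Levels of different probes were not compared, since each probe hybridizes with its own efficiency. A difference that ends at the floor is limited by the C57BL/6 signal, so only the fold of uc008pwp.2 and the bounds of NR_015498, uc008pwq.2 and uc008pws.2 can be set against each other. The bounds of at least 25.4-fold, 26.0-fold and 8.85-fold all exceed the 3.33-fold of uc008pwp.2. The bound of uc008pwr.2, at least 1.74-fold lies below it, so the order of these 2 probes could not be given. No test of these differences between probes was made, because the same contrast chose the probes.

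The transcripts uc008pws.2 and uc008pwr.2 have the same genomic span and overlapping probe intervals, yet their measured differences were -4.72 and -1.62. The DBA/1 side of both was not well above background, and their bounds of at least 8.85-fold and 1.74-fold are compatible with equal or unequal changes. The 60 bases of these probes share no stretch longer than 7 bases.

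The size of the strain difference depended on the treatment of background. After normexp correction of the median spot signals, with an added offset of 50, the log2 difference was -2.99 for NR_015498, -2.98 for uc008pwq.2, -1.72 for uc008pws.2, -0.72 for uc008pwp.2 and -0.32 for uc008pwr.2. The last pair no longer met a fold change of 2, so 3 of the 5 probes did. The bounds given above are for the floored and quantile-normalized signals and were not computed under normexp. For NR_015498, uc008pwq.2, uc008pws.2 and uc008pwr.2, the normexp difference was smaller than the bound. The bounds are therefore not minima under every treatment of background. With no floor the differences of NR_015498, uc008pwq.2 and uc008pws.2 grew to -7.22, -7.21 and -6.08. These rest in part on DBA/1 spots whose intensity had the size of its error. All 5 stayed lower in DBA/1 under every processing that was run.

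The C57BL/6 mice differed little from each other. The SD of their log2 signals was 0.09 to 0.26 over the 5 probes, with a median over all tested probes of 0.25. Before normalization, C57BL/6 replicate 4 had the highest intensity on all 5 probes, and that array also had the highest 75th percentile of intensity among the 8, at 112. After quantile normalization, C57BL/6 replicate 2 was highest on 4 probes and replicate 3 on uc008pwp.2. The order of the mice therefore turned with the scaling. The deviations from the C57BL/6 mean were 0.32 and 0.22 in replicate 2 and -0.31 and -0.16 in replicate 4 for uc008pwq.2 and NR_015498.

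The neighbourhood of the gene was described from the same lists. The lncRNA list was used here in a shortened copy, so it does not cover every probe the study listed. Within 500 kb of the transcripts, 2 further probes were in it, and both had been chosen by the study for the same contrast. The probe of uc008pwt.2, from the opposite-strand 5830417I10Rik at chr3:88811427-88829371, had log2 signals of 4.16, 4.58, 4.48 and 4.62 in C57BL/6. In DBA/1, replicates 1 to 3 were at the floor and replicate 4 was at 2.93, and no spot was well above background. The means were 4.46 ± 0.21 (SD, n = 4) and 2.47 ± 0.31 (SD, n = 4), and it was at least 1.48-fold higher in C57BL/6. The span of this transcript overlaps those of all 5 listed transcripts of 1500004A13Rik, and of their probe intervals it holds that of NR_015498. Whether the labelling kept the strands apart is not given in the sources used here, so signal from the opposite strand could not be separated.

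The other listed probe reads ENSMUST00000173711, a noncoding transcript of Dap3 at chr3:88923635-88925542. Dap3 encodes a protein of the mitochondrial ribosome. The transcript lies 91148 bases upstream of the shared start. Its log2 signals were 4.39, 4.39, 4.94 and 4.65 in C57BL/6 and 2.32, 3.51, 4.21 and 3.82 in DBA/1, with 3 DBA/1 mice well above background. The difference was -1.13 (standard error 0.43), and without DBA/1 replicate 1, which was at the floor, it was -0.75. The strains were separated by 0.18. The protein-coding neighbours are Syt11, a synaptotagmin family member involved in membrane traffic, and Gon4l, which encodes a nuclear protein and lies on the plus strand 2660 bases from the RefSeq start of 1500004A13Rik. No probe was named for either in the tables used here, so their levels were not analysed here.

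Among 1164 listed probes of other genes with values on all 8 arrays, the patterns most like that of NR_015498 were found by the root mean square difference of log2 signals after each probe was centred on its own mean. The closest were AA388235 on chromosome 17 with 0.21, AK047380 on chromosome 6 with 0.25, Tceanc2 on chromosome 4 with 0.34, Ier5 on chromosome 1 with 0.45 and AK143879 on chromosome 4 with 0.58. The median over all 1164 probes was 2.50. AA388235, AK047380 and AK143879 are listed as lncRNAs, while Tceanc2 and Ier5, an immediate early response gene, are mRNAs. Their C57BL/6 means ran from 7.89 to 8.60, and in DBA/1 the first 4 were detected in no mouse and AK143879 in 1. Likeness was measured over 8 arrays, and all of these probes share the strain difference that brought them into the lists. The DBA/1 values of NR_015498 were all at the floor, so its pattern over the arrays is set by the height of its C57BL/6 signal over the floor, and the likeness depends on that height and describes these signals alone.

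The sequence around the RefSeq start of the gene is shown as RefSeq gives it for C57BL/6J. It stops just short of the start shared by the listed transcripts. The part of the promoter in the strain difference was not tested. The stretch is chr3:88832498-88832797 of GRCm38.p6, minus strand, with GGGCGG in capitals.
1500004A13Rik promoter: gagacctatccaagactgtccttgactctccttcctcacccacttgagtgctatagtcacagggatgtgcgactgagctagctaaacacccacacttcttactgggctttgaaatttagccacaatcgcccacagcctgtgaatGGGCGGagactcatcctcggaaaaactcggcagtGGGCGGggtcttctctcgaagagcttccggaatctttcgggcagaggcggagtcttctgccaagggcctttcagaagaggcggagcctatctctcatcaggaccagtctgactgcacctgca
It is 300 bases long and ends 50 bases past the RefSeq start, which lies 60 bases before the start in the study's list. It held 11 CG dinucleotides, with a median of 7 over 32851 promoters of the same length, and its G and C content was 54.3%, with a median of 52.7%. On both strands together, GGGCGG occurred 2 times here and at least once in 35.7% of the promoters. TTCCGG occurred 2 times, as an overlapping pair on opposite strands, and at least once in 14.9% of them. TATAAA and CCAAT were not in this stretch and occurred in 13.6% and 37.4% of the promoters. These matches describe letters and not binding, and the arrays did not measure the promoter.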

How the data were processed

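Brainstem RNA was labelled with Cy3 by random priming and hybridized to a one-color lncRNA and mRNA array. The authors scanned the arrays, and Agilent Feature Extraction 11.0.1.1 gave the deposited spot intensity. It is background-subtracted within the array and not normalized between arrays. On the dim spots described above it has the size of its error. The authors' table holds log2 values after quantile normalization. With outlier spots kept, it was rebuilt from the scanner files to within 0.0104 for values clear of the floor. Here control spots and flagged outliers were removed, replicate spots averaged, intensities under 5 set to 5, and the 8 arrays quantile-normalized on the log2 scale.

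Of 60804 probes, 33267 were well above background on at least 4 arrays, and 33179 of these had values in both strains and were tested. The strain contrast was fitted in R 4.3.3 by limma 3.58.1 (functions lmFit and eBayes), with the Benjamini-Hochberg adjustment. The fit was tested on simulated data. Python 3.11.15 with pandas 2.3.3 and numpy 2.4.6 assembled the tables. No p-value is given for single probes of 1500004A13Rik, and 4 arrays per strain limit the precision.

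The names, positions, strands and sequences of probes come from the study's lists of differentially expressed RNAs, used here for 761 lncRNA and 433 mRNA probes (the lncRNA list in a shortened copy), and their values were not used. Starts in the lists count from 0 and were raised by 1. The genes named are the 5 probes, listed probes within 500 kb, the RefSeq genes overlapping or next to the transcripts, and the 5 listed probes of other genes with the most similar pattern. The members and lists were chosen with earlier results of these data known. Alternatives were other scalings, floors, background corrections, filters, tests and fold changes, a replicate block, and each mouse left out. Normexp used the median spot signal, the spot signal held in the scanner files used here.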

Additional observations from a re-analysis of the deposited data

Results flagged for a closer look

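Of 12 groups of 4 mice with any spread, 2 held a value farther from the others than the critical value of Dixon's test allows, where chance alone would flag about 1 in 20 groups. For uc008pwq.2 (ASMM10P024950), DBA/1 replicate 1 was at 2.36 on the log2 scale while the other 3 DBA/1 mice were at the floor. For uc008pwt.2 of 5830417I10Rik, DBA/1 replicate 4 was at 2.93 while the other 3 were at the floor. In both cases the gap equals the whole range because the other values were set to the floor, and neither spot was well above background.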

How the results depend on the processing

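Scaling to the 75th percentile gave log2 differences of -6.01 for NR_015498, -6.00 for uc008pwq.2 and -4.49 for uc008pws.2. With no floor the same 3 probes gave -7.22, -7.21 and -6.08, partly from DBA/1 spots whose intensity had the size of its error. Normexp gave -2.99, -2.98 and -1.72 for the same 3 probes. It gave -0.72 for uc008pwp.2, -0.32 for uc008pwr.2, -0.30 for uc008pwt.2 and -0.27 for the Dap3 transcript. It changed the correction, the spot signal and the offset together, so the cause was not tested. The span between the largest and smallest measured difference, which runs from uc008pwq.2 or NR_015498 to uc008pwr.2 and so rests on probes not detected in DBA/1, was 4.65, with 5.58 without a floor and 2.67 with normexp. Under normexp 3 of the 5 probes met a fold change of 2 at either criterion, and 381 of all tested probes met the unadjusted one, against 1449 as reported, 3498 at a fold change of 1.5 and 576 at 3. With the lowest value well above background as the limit, the bounds were at least 42.3-fold for NR_015498, 43.4-fold for uc008pwq.2, 14.8-fold for uc008pws.2 and 2.77-fold for uc008pwr.2. The positive and significant flag raised the detected DBA/1 arrays from 0 to 1, 2, 1 and 4 for these probes. The ratio of spot to local background has no threshold of its own and is given in the report as values.

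With each mouse left out, the bounds ran from 23.8 to 28.6-fold for NR_015498 and from 8.30 to 9.996-fold for uc008pws.2, and all 5 probes met both criteria in every run. The probes were chosen on this contrast, so that count is a description. All DBA/1 values of NR_015498 and uc008pws.2 were at the floor. Their measured differences therefore stayed at -6.24 and -4.72 whichever DBA/1 mouse was left out. Arrays with the same replicate number in the labels also share a slide column. Their deviations from the strain means correlated across probes at 0.38, 0.02, 0.13 and 0.35 for numbers 1 to 4. Of the 8 arrays, 6 correlated best with their own number. With the replicate block, 1456 probes met the unadjusted criterion, and all 5 probes of the gene did. Without moderation of the variances, the unpaired test gave 1365 probes at a 2-fold change, and 888 after Benjamini-Hochberg adjustment. Of the other 185 comparisons with an alternative, all kept their direction and stayed within the spread between mice or, for counts, within 1.5 times. They include the measured differences of NR_015498 and uc008pws.2 without a DBA/1 mouse, which the floor fixed.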
